A study of Homo sapiens with 8 samples.

Results

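Staufen proteins and the factors of nonsense-mediated decay (NMD) were followed at the level of translational efficiency (TE, ribosome footprints over mRNA) in melanoma cells with and without a hairpin against the RNA TINCR. The members were taken by symbol from a list of 9 genes, namely STAU1, STAU2, UPF1, UPF2, UPF3A, UPF3B, SMG1, SMG5 and SMG6. Of these, 4 had a row among the 4616 genes of the authors' deposited table: STAU1, UPF1, SMG1 and SMG5. The other 5, STAU2, UPF2, UPF3A, UPF3B and SMG6, had no row under these symbols or their synonyms and were not analysed here. The sources used here do not give the filter that decided which genes have a row, so a missing row says nothing about the level of a gene.

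The cells were WM902B, an established human primary melanoma line with the BRAFV600E mutation, at passage 18. They carried either an shRNA against TINCR (shTINCR) or a scrambled shRNA (shSCR), and all of them received cycloheximide at 100 µg/ml for 5 min. Each hairpin was represented by 2 footprint libraries and 2 RNA libraries (polyA RNA by their subtype, total RNA by their titles), 8 in all, the replicates being biological per the labels. A single cell line and, as far as the labels say, a single hairpin per condition limit what the comparison can stand for. The authors' deposited table gives 1 log2 TE value per condition and gene, with no column per library, so neither the values of single replicates nor their spread nor the depth of the libraries can be shown. TINCR itself had 0 rows, so its silencing was not checked. Of 8 defining melanocyte lineage genes, 7 had a row, against 0 of 6 keratinocyte, 1 of 7 fibroblast and 0 of 5 leukocyte genes. Since the filter is unknown, these counts describe the table and do not test the identity of the cells.

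NMD degrades mRNAs on which a ribosome terminates in an unusual context, such as upstream of an exon junction complex. The kinase SMG1 phosphorylates the RNA helicase UPF1 at the stalled terminating ribosome, and phosphorylated UPF1 recruits SMG6, which cuts the mRNA, and the adaptor SMG5, which helps to bring in deadenylation, decapping and the phosphatase that resets UPF1. STAU1 binds double-stranded RNA and, when bound in a 3′ untranslated region, can recruit UPF1 to start Staufen-mediated decay, a related pathway. In human keratinocytes STAU1 is also a described partner of TINCR, with which it stabilises mRNAs of epidermal differentiation. The mRNAs of several NMD factors, UPF1, SMG1 and SMG5 among them, have been described as NMD targets themselves in human cells.

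Because TE can depend on the first bases of an mRNA, the annotated 5′ ends of the measured members are shown. They come from RefSeq (GRCh38.p14), which holds 6 start entries for the 4 genes, while the deposited values were made with the build hg19. Each line gives 20 bases before the start in lower case and the first 10 bases from the start in capitals, 5′ to 3′ on the gene's strand.
STAU1, entry 1, chr20:49219286-49219315, minus strand: cgacctcttaagagtgcgcaTGCGGCAATA
STAU1, entry 2, chr20:49188325-49188354, minus strand: ctgcgggcgcctgagcggctCTTCAGCGTT
UPF1, chr19:18831939-18831968, plus strand: gcgacggcggcggtggcggcAGTTCCTGCT
SMG1, chr16:18926399-18926428, minus strand: gagccgggaggcggggaagcAGTGGCCGTG
SMG5, entry 1, chr1:156291507-156291536, minus strand: ggctctcggtggcagtgagcATGCGCTCCG
SMG5, entry 2, chr1:156282816-156282845, minus strand: tggcaggcggaggaggagctGTCGCGGGCA

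None of these 6 entries began with a C followed by at least 4 C or T, the letters of a 5′ terminal oligopyrimidine tract, which is known from mRNAs of ribosomal proteins and translation factors. The motif was chosen with results of the table known, and only the gene's own strand and the exact start were searched. It was present in 4.07% of all 35116 start entries of RefSeq, and of the 3857 genes of the deposited table with an entry 334 (8.66%) had at least 1 such entry. Among those 334 genes, 76 (22.8%) fell and 16 (4.79%) rose at an adjusted p below 0.05 in the authors' deposited table, beside 8.22% and 7.99% of the 3857 genes with an entry. An absent match says only that these letters are not at these annotated starts. Which start WM902B cells use was not tested.

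The 4 measured mRNAs stood at opposite sides of the TE distribution. UPF1 and STAU1 had a deposited TE above that of the typical gene in both conditions, and SMG1 and SMG5 had some of the lowest TE values of the table. Of the 4, only SMG5 changed past the threshold, an adjusted p below 0.05, and it rose in shTINCR cells by 1.36-fold. STAU1, the described TINCR partner, had nearly the same TE under both hairpins.

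STAU1, the double-stranded RNA-binding member, had a log2 TE of 0.45 in shTINCR cells, against 0.41 in shSCR cells, in the authors' deposited table. The median log2 TE of all genes was 0.0019 in shTINCR and 0.0078 in shSCR cells, so a linear TE of 1 stands for the typical gene, and STAU1 had a linear TE of 1.37 in shTINCR cells and 1.33 in shSCR cells. Its log2 change of TE was 0.04 (1.03-fold, adjusted p = 0.827, by the authors' deposited table). STAU1 thus lay above 70.6% of all genes by TE in shTINCR cells and above 69.9% in shSCR cells. A change this small did not pass the test, which does not show that TE was equal, and no interval can be given without replicate values. The 2 genes nearest to STAU1 over the log2 TE values of the 2 conditions were FDXR (0.45 in shTINCR and 0.41 in shSCR cells) and TMEM205 (0.46 in shTINCR and 0.41 in shSCR cells) in the authors' deposited table. With only 2 conditions, many genes share such a pair of values.

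UPF1, the RNA helicase at the centre of NMD and of Staufen-mediated decay, had the highest TE of the 4. Its log2 TE was 0.67 in shTINCR cells and 0.51 in shSCR cells in the authors' deposited table, which placed it above 79.0% of genes in shTINCR cells and above 74.5% in shSCR cells. The log2 change of 0.15 (1.11-fold) did not pass (adjusted p = 0.407, by the authors' deposited table).

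SMG1, the kinase that phosphorylates UPF1, had a log2 TE of -1.87 in shTINCR cells and of -1.61 in shSCR cells in the authors' deposited table. On the linear scale its TE was 0.273 in shTINCR cells and 0.327 in shSCR cells. Of the 4616 genes, 132 had a lower TE than SMG1 in shTINCR cells and 219 in shSCR cells. SMG1 was the only measured member with a negative log2 change, -0.26 (0.835-fold), and it did not pass (adjusted p = 0.187, by the authors' deposited table). The 2 versions of the authors' estimate gave it the same change to 2 decimals, with unadjusted p-values of 0.0386 in the first and 0.0585 in the second version of the authors' deposited table. SMG1 has 7 named pseudogenes in RefSeq (SMG1P1 to SMG1P7) and a small nucleolar RNA gene among the 3 genes that overlap it. Its value is therefore uncertain, since it is not known how reads shared with such copies were counted, and their part in the result was not tested.

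SMG5, the adaptor that links phosphorylated UPF1 to decay and dephosphorylation, had the lowest TE of the 4. Its log2 TE was -2.27 in shTINCR cells and -2.71 in shSCR cells in the authors' deposited table. On the linear scale that is a TE of 0.208 in shTINCR cells and 0.153 in shSCR cells, well below the typical gene in both conditions. Only 57 of 4616 genes had a lower TE in shTINCR cells, and 25 had one in shSCR cells. The log2 change of 0.44 passed the threshold (adjusted p = 0.0356, by the authors' deposited table). It did not pass at a threshold of 0.01, or with the Benjamini-Yekutieli adjustment of the p-values in the authors' deposited table (adjusted p = 0.321). This rise left SMG5 in the lowest percentiles of TE, above 1.23% of genes in shTINCR cells and above 0.542% in shSCR cells.

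The rise of SMG5 was larger than most rises of the table, but its p-value was not among the smallest. Its log2 change, with its sign, exceeded that of 95.7% of all genes. A rise at least as large, falls not counted, was found for 198 genes, SMG5 included, of which 187 passed the threshold. By the final p-value SMG5 ranked 633 among the 757 genes that passed. The authors' deposited table gave it an unadjusted p of 4.82e-04 in the first version and of 0.00489 in the second, and the larger of the 2 was kept. SMG5 has no named pseudogene in RefSeq. The annotated gene overlaps TMEM79, a protein-coding gene with no row in the table, and the sources used here do not say whether counting used strand, so reads of the 2 genes may not have been told apart.

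**Figure D1:**
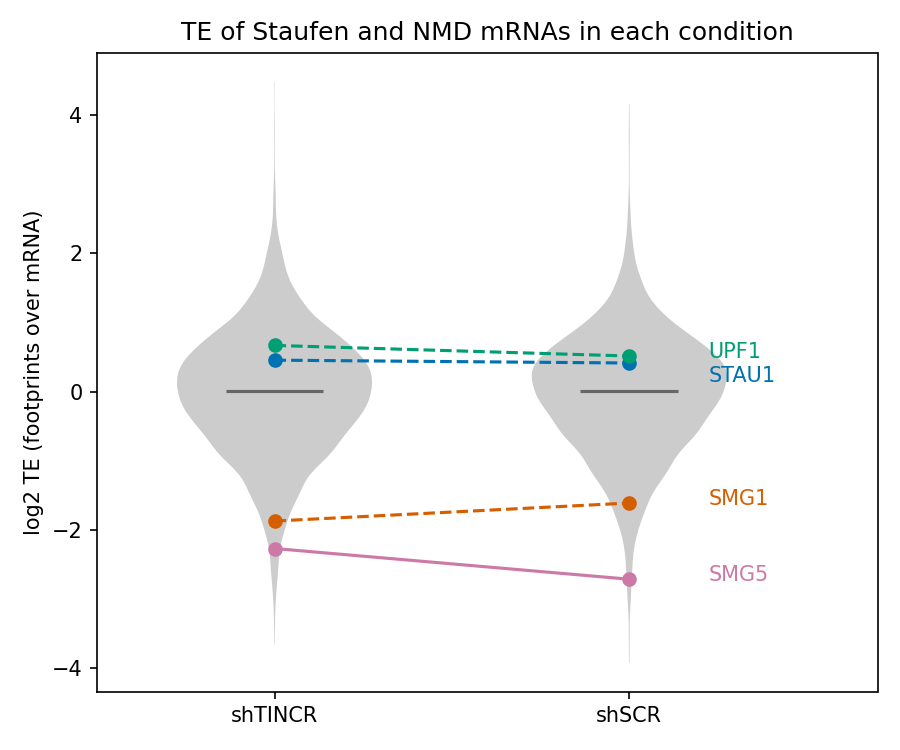
Log2 TE (vertical axis) of STAU1, UPF1, SMG1 and SMG5 in shTINCR and shSCR cells as deposited, over violins of all 4616 genes with their medians as grey bars. A solid line marks the gene past an adjusted p of 0.05 (SMG5) and dashed lines the others. UPF1 and STAU1 lie above both medians, and SMG1 and SMG5 lie in the lower tails.

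Of the 4 measured members, 1 rose and 0 fell at an adjusted p below 0.05. Of all genes 16.4% passed in either direction, 8.23% upwards and 8.17% downwards. With an unadjusted p below 0.05, which 29.5% of all genes reached, the counts of the members were the same, 1 up and 0 down. A single gene of 4 is too few to set against these shares. The median log2 change of the 4 was 0.10, beside 0.02 over all genes, with single values between -0.26 and 0.44. SMG1 and SMG5, which had log2 TE values 1.10 apart in shSCR cells, were 0.40 apart in shTINCR cells. Whether their changes differ from each other was not tested, since the table has no error per gene.

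The order of the members by TE was the same in both conditions, UPF1 followed by STAU1, SMG1 and SMG5. UPF1 and STAU1 were close neighbours, with a TE ratio of 1.16 in shTINCR cells and 1.07 in shSCR cells. The ratio of UPF1 to SMG5 was 7.65 in shTINCR cells and 9.36 in shSCR cells, and that of UPF1 to SMG1 was 5.81 in shTINCR cells and 4.36 in shSCR cells. Which neighbours differ beyond their spread cannot be said from values without replicates. A TE ratio between genes also depends on which region of each mRNA was counted, which the sources used here do not state.

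SMG1 and SMG5 both belonged to the lowest 5% of genes by mean log2 TE of the 2 conditions, a group of 231 genes formed after the values were seen. Of these 231, 23 rose and 11 fell at the same threshold, and their median log2 change was -0.02. A larger rise than that of SMG5 was seen for 16 of them. The 2 genes nearest to SMG5 over both log2 TE values were CLPTM1L, with -2.21 in shTINCR and -2.63 in shSCR cells, and DENND5A, with -2.38 in shTINCR and -2.75 in shSCR cells, in the authors' deposited table. Their log2 changes of 0.42 and 0.37 did not pass (adjusted p = 0.0672 and 0.122, by the authors' deposited table). Changes close to that of SMG5 follow from the way these 2 genes were picked, since the change is nearly the difference of the 2 log2 TE values.

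**Figure D2:**
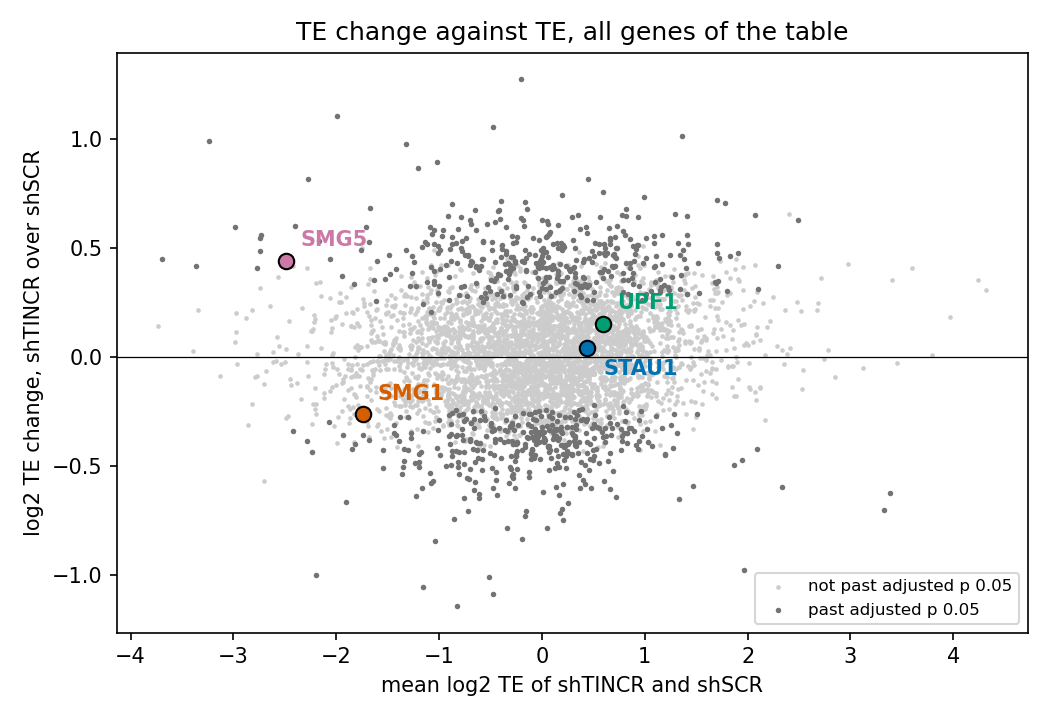
Log2 change of TE, shTINCR over shSCR (vertical axis), against the mean log2 TE of the 2 conditions (horizontal axis) for all 4616 genes. Dark grey points passed an adjusted p of 0.05 and light grey points did not. SMG5, at a change of 0.44, and SMG1, at -0.26, lie at the far left, while UPF1 and STAU1 lie within the bulk of genes.

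Further genes were read from 7 lists of NMD partners, RNA decay genes, double-stranded RNA-binding proteins and described targets of Staufen-mediated decay. Together the lists had 59 measured genes. Of these 1 rose and 7 fell, and the median log2 change was 0.03. By direction, 1.69% of the 59 rose and 11.9% fell, beside 8.23% and 8.17% of all genes. With both directions pooled, the 8 genes past the threshold are 13.6% of the 59, beside 16.4% of all genes. Whether these shares differ was not tested. The 8 genes were DCPS, DDX6, XRN1, XRN2, TTC37, PABPC1, PABPC4 and DHX9.

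Of 12 genes on the list of other NMD factors 7 had a row: SMG8, NBAS, RUVBL1, RUVBL2, MOV10, ETF1 and GSPT1. The list is broad and also holds genes that do not act in NMD alone, such as the release factor ETF1. In either direction 0 of these 7 passed, at the adjusted p or at an unadjusted p under 0.05 as the authors computed them. Over all genes these shares were 16.4% and 29.5%. The log2 changes of the 7 lay between -0.19 and 0.10 with a median of 0.03. SMG8, a regulatory subunit that binds SMG1, was among the 7. The smallest p-values belonged to NBAS, an NMD factor at the endoplasmic reticulum with a log2 change of -0.19, to the ATPase RUVBL2 (0.10) and to the release factor ETF1 (0.06), which recognises the stop codon, in the authors' deposited table.

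Of 11 exon junction complex genes 8 had a row and 0 passed at the adjusted p, which 16.4% of all genes passed. The authors' unadjusted p was under 0.05 for 3 of the 8, all with a positive change, beside 29.5% of all genes in either direction. Of the 8 changes 6 were positive, beside 2425 of 4616 over all genes. The median of the 8 was 0.22, beside 0.02 over all genes. Whether the 8 differ from the other genes was not tested. CASC3, a core component of the complex, had a log2 TE of -0.26 in shTINCR cells and of -0.68 in shSCR cells in the authors' deposited table. Its log2 change was 0.41 (adjusted p = 0.0828, by the authors' deposited table). ALYREF, an mRNA export adaptor, stood at 0.30 (adjusted p = 0.0595), and ACIN1, a peripheral component, at 0.28 (adjusted p = 0.0908), as the authors' deposited table gives it.

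SMG5 and UPF1 hand their targets to decapping and decay from the 5′ end. The list read for this also holds genes of other steps, such as DCPS and the nuclear XRN2. Where 8.23% of all genes rose and 8.17% fell, 1 of the 13 measured genes on it rose, 3 fell and 9 did not pass. The median log2 change of the 13 was 0.14. With the Benjamini-Yekutieli adjustment 1 of the falls was left. DCPS, the scavenger enzyme that hydrolyses leftover caps, rose 1.54-fold, with a log2 TE of 0.36 in shTINCR cells and of -0.27 in shSCR cells (adjusted p = 4.63e-04, by the authors' deposited table). The cytoplasmic exonuclease XRN1 fell to 0.727-fold, with -0.85 in shTINCR cells and -0.39 in shSCR cells (adjusted p = 0.035, by the authors' deposited table). The nuclear exonuclease XRN2 fell to 0.768-fold (adjusted p = 0.00588) and the decapping activator DDX6 to 0.774-fold (adjusted p = 0.00394) by the authors' deposited table. DCPS acts on cap remnants left by decay from the other end, not on the capped mRNA itself.

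Among 15 measured genes of the RNA exosome, the Ski complex and ribosome rescue, 0 rose and 1 fell, beside 8.23% and 8.17% of all genes. The median log2 change of the 15 was -0.03. TTC37, the scaffold of the Ski complex, fell to 0.805-fold, with a log2 TE of -1.60 in shTINCR cells and of -1.28 in shSCR cells (adjusted p = 0.038, by the authors' deposited table). PELO, which rescues stalled ribosomes, stood at 0.39 on the scale of log2 changes (adjusted p = 0.0558), and the exosome subunit EXOSC5 at 0.42 (adjusted p = 0.106), as the authors' deposited table gives it.

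Of 18 deadenylation genes 6 had a row, of which 0 rose and 2 fell, beside 8.23% and 8.17% of all genes. The median log2 change of the 6 was -0.20. Both falls were those of poly(A)-binding proteins, which coat the tail rather than shorten it. PABPC1 had a log2 TE of -1.46 in shTINCR cells and of -0.87 in shSCR cells and fell to 0.66-fold (adjusted p = 2.37e-07, by the authors' deposited table). PABPC4 fell to 0.705-fold (adjusted p = 3.16e-04, by the authors' deposited table). PABPC1 has 13 named pseudogenes in RefSeq, so its value is uncertain. CNOT11, a subunit of the CCR4-NOT deadenylase, had a log2 change of 0.31 and did not pass (adjusted p = 0.13, by the authors' deposited table).

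STAU1 was also set beside 9 other measured genes on the list of double-stranded RNA-binding proteins. Of these 0 rose and 1 fell, beside 8.23% and 8.17% of all genes. The median log2 change of the 9 was -0.10. DHX9, a helicase with double-stranded RNA-binding domains, had a log2 TE of 0.12 in shTINCR cells and of 0.47 in shSCR cells and fell to 0.787-fold (adjusted p = 0.00263, by the authors' deposited table). ILF2, a nuclear RNA-binding protein, stood at -0.21 on the scale of log2 changes (adjusted p = 0.104) and the editing enzyme ADAR at 0.19 (adjusted p = 0.223) by the authors' deposited table. Of 8 mRNAs described as targets of Staufen-mediated decay, 1 had a row. This was ARF1, a small GTPase of the Golgi, with 0.40 in shTINCR cells and 0.23 in shSCR cells and a log2 change of 0.17 that did not pass (adjusted p = 0.214, by the authors' deposited table). ARF1 and ETF1 have 3 named pseudogenes each, DDX6 and ILF2 have 2 each, and DHX9 and RUVBL2 have 1 each, so their values may include shared reads, which was not tested. Effects of STAU1 on the abundance of its targets could not be read from TE.

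**Figure D3:**
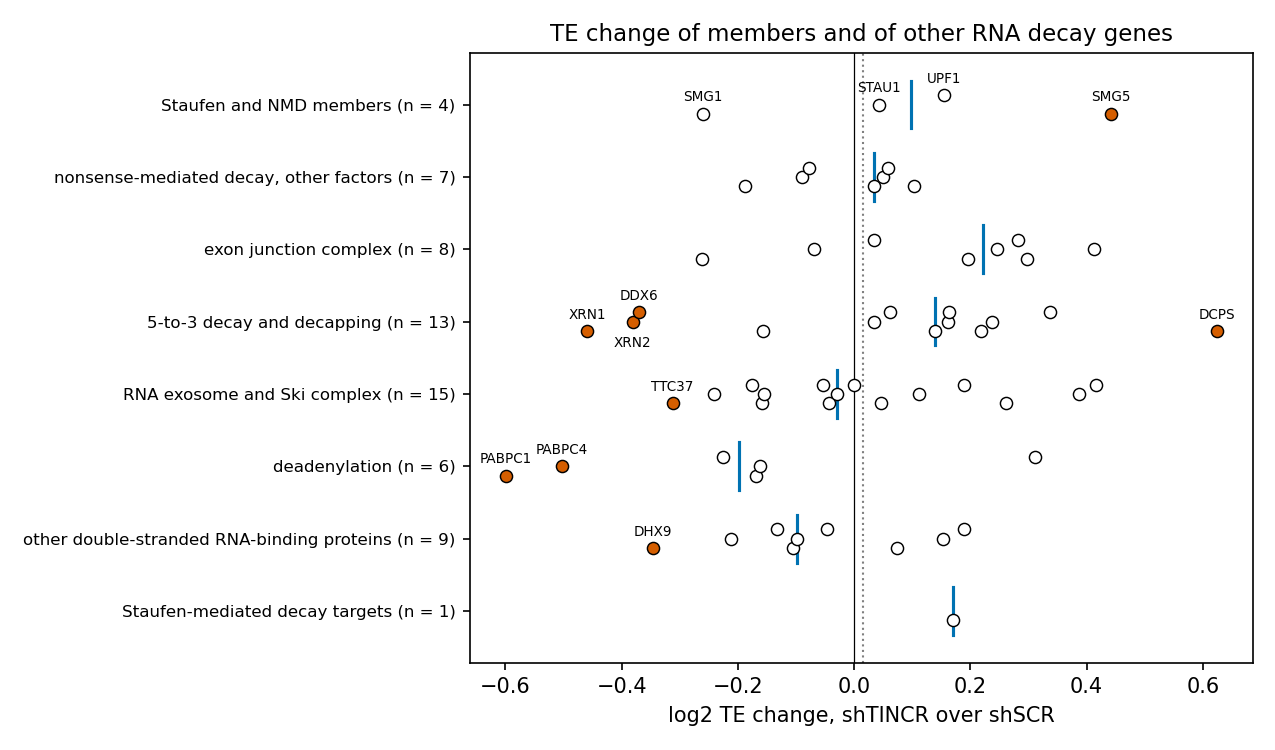
Log2 change of TE, shTINCR over shSCR (horizontal axis), of each measured gene in the 4 members and in the 7 lists. Filled points passed an adjusted p of 0.05, open points did not, blue bars are medians, the solid line is at 0 and the dotted line at the median of all genes, 0.02. SMG5 and DCPS are the filled points on the right, and the 7 filled points on the left are XRN1, XRN2, DDX6, TTC37, PABPC1, PABPC4 and DHX9.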

How the data were processed

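The authors' deposited table holds log2 TE in shTINCR and in shSCR cells, a first, a second and a final log2 change, and a p-value for each with 1 adjusted p-value, per the file headers. DESeq 1.10.1, HTSeq 0.5.3p9, SAMtools 0.1.18, the aligners Bowtie2 2.1.0 and TopHat2 2.0.8, CASAVA 1.9 and the build hg19 are named without roles, per the submitters' processing notes. The tool behind the TE changes is in none of the sources used here. The final p was found to be the larger of both versions in 4616 of 4616 rows, and the adjusted p-value of the authors equalled a Benjamini-Hochberg adjustment over all genes. No column held a single library, so planned count fits were not run, depth is unknown and no test was added.

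Genes were called at an adjusted p below 0.05, and folds are 2 to the power of the log2 change. Of the symbols, 4465 were current in RefSeq (GRCh38.p14), 139 were older names and 12 had no match. Named list genes are the 3 with the smallest p and up to 5 more past the threshold. Named neighbours are the 2 genes at the smallest Euclidean distance over both log2 TE values, for STAU1 and for members past the threshold. The members and lists were chosen with earlier results of these data known. The software was Python 3.11.15 with scipy 1.17.1 for adjustments, matplotlib 3.10.9, pandas 2.3.3 and numpy 2.4.6, and the adjustment was tested on simulated data.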

Additional observations from a re-analysis of the deposited data

How the results depend on the processing

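The changes of STAU1, UPF1, SMG1 and SMG5 kept their direction in both versions of the authors' estimate, as a difference of the log2 TE values and after centring on the median of all genes. These settings left little room for a reversal. The second version lay within 0.00873 of the log2 TE difference in every gene. Centring subtracted 0.016, less than the smallest change of the 4, 0.042. In the authors' deposited table SMG5 passed in the first version (Benjamini-Hochberg adjusted p = 0.00638) and the second (adjusted p = 0.0295), and the other 3 passed in neither. The pass of SMG5 in both was fixed in advance, since neither p-value exceeds the final p in any gene. With the Benjamini-Yekutieli adjustment of the p-values in the authors' deposited table SMG5, at 0.44, no longer passed (adjusted p = 0.321), so 0 members were left. At a threshold of 0.01 the number of members that rose was also 0. Of the genes on the 7 lists, 6 rose at a threshold of 0.1 and 3 in each version, against 1, and 4 fell with Benjamini-Yekutieli, against 7. Of 84 recounts for single lists, 74 stayed within 1.5 times. Most of these 74 were counts of 0 that stayed at 0, so they say little about stability. Over all genes, 533 rose at a threshold of 0.1, 426 in the first version and 509 in the second, against 380. At 0.01, 167 of all genes rose and 194 fell, and 119 rose and 151 fell with Benjamini-Yekutieli, against 380 and 377. The direction of these moves, for the lists too, was fixed in advance. The number of genes called can only stay or grow at 0.1 or in a single version. It can only stay or shrink at 0.01 or with Benjamini-Yekutieli. No paired analysis was possible because the table holds no value per library, and for the same reason no replicate could be left out and neither count model was run. A shift of translation common to every gene, and the split of a TE change between footprints and mRNA, cannot be seen in these values.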
